A study of Sus scrofa with 9 samples.

Results

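RAP1 is a small GTPase, and the genes described here are its isoforms RAP1A and RAP1B together with 8 genes whose products switch it on or off. They are SIPA1, SIPA1L1, SIPA1L2, SIPA1L3, RAP1GAP, RAP1GAP2, RAPGEF1 and RAPGEF2. The genes were chosen by symbol from the gene rows of the deposited count table. All 10 symbols were found among 19535 genes, and all 10 were among the 13662 genes with enough counts to be tested.

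The libraries were made from porcine aortic valvular interstitial cells (PVICs), the fibroblast-like cells that maintain the valve leaflet, grown from wild-type pigs aged 4 to 5 months. The control group was kept in DMEM. The OIM group was kept in osteogenic induction medium, which holds 2 mmol/L phosphate, 50 µg/mL ascorbic acid and insulin and is used to make valve cells deposit calcium. The bFGF group received the same osteogenic medium with 50 ng/mL basic fibroblast growth factor, so it differs from OIM by bFGF alone and from control by both. The labels give 3 days of treatment in each group, while the study's methods give a shorter time. There were 3 libraries per group, from primary cells after a few passages. Nothing in the labels says whether the libraries came from separate pigs or cultures, so the p-values measure only the spread between these libraries, which may be technical.

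RAP1 is active when it carries GTP and inactive when it carries GDP. Guanine nucleotide exchange factors (GEFs) such as RAPGEF1 and RAPGEF2 load it with GTP, and GTPase-activating proteins (GAPs) of the SIPA1 and RAP1GAP families make it hydrolyse GTP. Active RAP1 promotes integrin adhesion to the matrix and the strength of cell-cell junctions, and in fibroblast-like cells it acts on spreading and on the actin cytoskeleton. The abundance of an mRNA says nothing of how much RAP1 carries GTP, which was not measured.

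Under bFGF, the mRNAs of 3 SIPA1 family GAPs, SIPA1, SIPA1L1 and SIPA1L3, were 1.95 to 2.47 times their OIM level. The mRNA of the fourth family gene, SIPA1L2, stood at 0.311 times its OIM level, and that of RAP1GAP2 at 0.354 times. Both RAP1 genes were lower by much smaller steps, RAPGEF1 was slightly higher, and RAPGEF2 did not pass the test. Between OIM and control 1 gene of the 10 passed by adjusted p, SIPA1L1 at 1.22 times the control level, where 13.6% of all genes passed, and none reached the fold limit of a call.

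Gene counts summed to between 46773376 and 48270827 per library under bFGF and to between 57075793 and 67371523 for the other 6 libraries. Levels are given as CPM, the counts per gene scaled to library sizes corrected by the TMM method, which assumes that most genes do not differ between libraries. The common coefficient of variation between replicates beyond counting error was 0.0602. Counting error adds most for SIPA1L2, RAP1GAP2 and RAP1GAP, whose lowest counts per library were 48, 52 and 4. OIM replicate 2 stood apart: the mean chi-square per gene of its counts against the other OIM libraries reached 18.7, and no pair of replicates without it exceeded 11.4. The fits were repeated without that library, and their values are given after the genes. The cells expressed the genes expected of valve interstitial cells in every library, with all 10 interstitial markers on the list above 1 CPM.

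The SIPA1 family is named for the signal-induced proliferation-associated protein, a RAP GAP, and its like proteins share the GAP domain with PDZ and coiled-coil regions. SIPA1 lies on chromosome 2 from 6606613 to 6618556, minus strand, and SIPA1L1 on chromosome 7 from 94789794 to 95168728, plus strand. SIPA1L3 lies on chromosome 6 from 46948078 to 47139551 and SIPA1L2 on chromosome 14 from 58116906 to 58352507, both on the plus strand. Coordinates are those of the RefSeq annotation of Sscrofa11.1. The 250 bases directly before the annotated start are shown here 5′ to 3′ on the strand of the gene for SIPA1 and SIPA1L1, which are 2 of the 3 family genes that rose under bFGF and the most abundant ones per length. Capitals mark matches on either strand to 5 motifs: AP-1 (TGANTCA), ETS (CCGGAA), TEAD (GGAATG), GC box (GGGCGG) and the CArG box. They lie at chr2:6618557-6618806 (minus strand) and chr7:94789544-94789793 (plus strand).
SIPA1: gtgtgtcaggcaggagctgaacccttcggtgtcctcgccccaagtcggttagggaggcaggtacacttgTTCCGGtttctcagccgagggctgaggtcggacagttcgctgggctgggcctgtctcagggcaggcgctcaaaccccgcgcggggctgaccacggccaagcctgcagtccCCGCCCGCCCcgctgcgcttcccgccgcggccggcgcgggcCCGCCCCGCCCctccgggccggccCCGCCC
SIPA1L1: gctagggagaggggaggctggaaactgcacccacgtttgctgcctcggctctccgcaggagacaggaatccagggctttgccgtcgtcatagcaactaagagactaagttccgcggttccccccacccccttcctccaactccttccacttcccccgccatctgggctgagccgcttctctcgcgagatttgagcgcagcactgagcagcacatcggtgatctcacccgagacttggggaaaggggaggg

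The windows of SIPA1 and SIPA1L1 shared no motif of the 5. The SIPA1 window was 74.0% G and C and held 1 ETS match and 5 GC box matches, some of which overlap, and these motifs occurred in 13.6% and 45.9% of the 19569 windows of this length before protein-coding genes. The SIPA1L1 window was 61.2% G and C and held no match. Of the motifs with no match in either, AP-1 occurred in 5.27% of windows, the CArG box in 1.31% and TEAD in 10.3%. A match is a run of letters and no measured binding site, and SIPA1L1 has 42 annotated transcripts, of which 5 start within 50 bases of the start used.

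SIPA1L1, a RAP GAP known for its place at neuronal synapses and cell junctions, was the 1 member that moved in both comparisons. Its level was 39.0, 40.2 and 41.3 CPM in the control libraries, 49.2, 49.5 and 48.5 CPM in the OIM libraries and 103, 98.1 and 106 CPM in the bFGF libraries. The 3 groups formed 3 steps with no overlap. OIM was above control by 0.29 on the log2 scale (SE 0.045, edgeR adjusted p = 0.000193), below the limit of 0.5 that a call required. bFGF was above OIM by 1.06 (SE 0.045, edgeR adjusted p = 3.90e-14). The study lists SIPA1L1 among genes upregulated in OIM, and its methods give the same limit of 0.5, which the change here did not reach. DESeq2, the tool its methods name, gave 0.29 for OIM against control here. The study used these same libraries, so the test of SIPA1L1 here is not independent evidence.

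SIPA1, expressed in many cell types and best known in lymphoid and metastatic cells, stood at 20.5, 25.8 and 21.8 CPM in control, 23.8, 27.8 and 21.2 CPM in OIM and 60.6, 57.9 and 61.2 CPM in bFGF. The control and OIM libraries overlapped, and every bFGF library lay above both. The difference between bFGF and OIM was 1.30 on the log2 scale (SE 0.085, edgeR adjusted p = 4.05e-11). Between OIM and control it was 0.097, with a 95% interval from -0.12 to 0.31, and without OIM replicate 2 it was -0.014.

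SIPA1L3, which in other tissues acts at epithelial cell junctions and in the lens, showed 32.6, 36.3 and 34.5 CPM in control, 36.6, 39.6 and 38.2 CPM in OIM and 75.4, 74.1 and 73.2 CPM in bFGF. All OIM libraries lay above all control libraries by a narrow margin, and the bFGF libraries were far above both. The rise over OIM was 0.96 on the log2 scale (SE 0.051, edgeR adjusted p = 1.46e-12). The difference of 0.15 between OIM and control did not pass (edgeR adjusted p = 0.0710), and it passed at 0.18 when control replicate 2 was left out.

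SIPA1L2 went the other way. It stood at 3.50, 3.40 and 3.85 CPM in control, 3.76, 3.64 and 2.99 CPM in OIM and 1.25, 1.06 and 0.923 CPM in bFGF. Every bFGF library was below every other library, by -1.68 on the log2 scale against OIM (SE 0.19, edgeR adjusted p = 1.57e-07). The counts behind it ran from 48 to 237 per library, fewer than for the other 3 family genes, which had at least 1118. OIM and control overlapped for SIPA1L2, with a difference of -0.049.

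**Figure D1:**
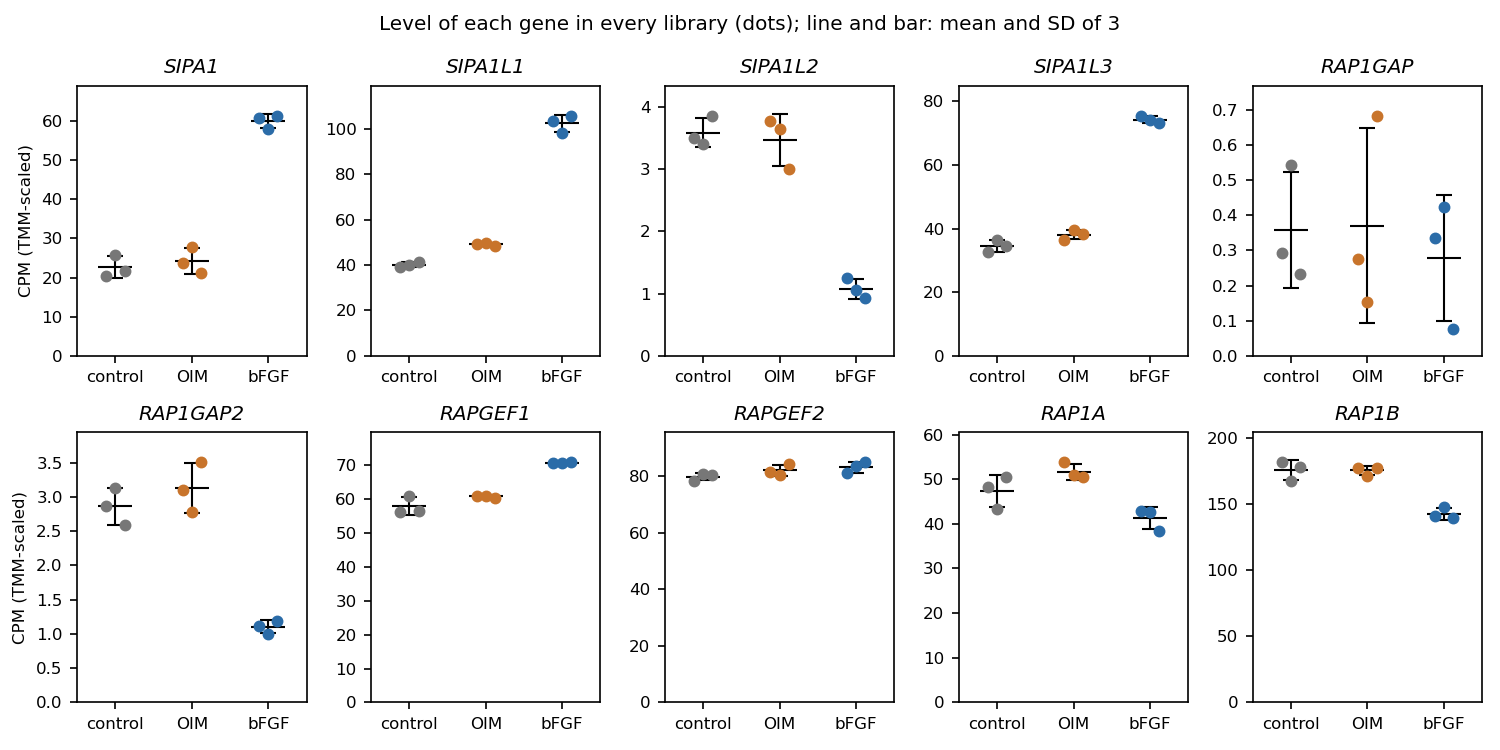
Level of each of the 10 genes in every library, in CPM on TMM library sizes, with 1 panel per gene on its own axis from 0. Dots are libraries, and the line and bar are the mean and SD of 3. SIPA1, SIPA1L1 and SIPA1L3 rise in the bFGF libraries, SIPA1L2 and RAP1GAP2 fall there, and RAPGEF2 stays between 78.2 and 84.8.

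RAP1GAP and RAP1GAP2 are RAP GAPs of a second family, best known in neurons and, for RAP1GAP2, in platelets. RAP1GAP2 stood at 2.86, 3.13 and 2.59 CPM in control, 3.10, 2.78 and 3.50 CPM in OIM and 1.12, 1.0 and 1.19 CPM in bFGF. The bFGF libraries lay apart below the rest, by -1.50 on the log2 scale against OIM (SE 0.20, edgeR adjusted p = 1.22e-06). RAP1GAP was barely detected, with 4 to 39 counts per library. It stood at 0.294, 0.544 and 0.234 CPM in control, 0.277, 0.154 and 0.683 CPM in OIM and 0.336, 0.423 and 0.0769 CPM in bFGF. The 3 groups overlapped, with the highest library in OIM and the lowest in bFGF. The 95% interval of its difference between bFGF and OIM ran from -1.95 to 1.16 on the log2 scale, so a fall of the size seen for RAP1GAP2 lay within it.

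The activators moved little. RAPGEF1 is bound by CRK adaptors and works downstream of integrins and growth factor receptors. It stood at 56.3, 60.9 and 56.5 CPM in control, 61.0, 61.0 and 60.4 CPM in OIM and 70.6, 70.8 and 70.8 CPM in bFGF. The bFGF libraries were nearly equal and above all others, by 0.22 on the log2 scale against OIM (SE 0.044, edgeR adjusted p = 0.000193), a change under the limit of a call. RAPGEF2, a GEF with a PDZ domain, ranged from 78.2 to 80.6 CPM in control, 80.4 to 84.1 CPM in OIM and 80.9 to 84.8 CPM in bFGF. Its difference between bFGF and OIM had a 95% interval from -0.080 to 0.12 on the log2 scale.

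Both GTPases were lower under bFGF. RAP1B, the more abundant isoform in these cells, stood at 181, 167 and 178 CPM in control, 177, 171 and 178 CPM in OIM and 141, 148 and 139 CPM in bFGF. Control and OIM overlapped and the bFGF libraries lay below both, by -0.30 on the log2 scale against OIM (SE 0.040, edgeR adjusted p = 1.52e-06). RAP1A stood at 48.2, 43.4 and 50.5 CPM in control, 53.7, 50.8 and 50.4 CPM in OIM and 42.9, 42.6 and 38.5 CPM in bFGF. The bFGF libraries were below every other library, by -0.32 against OIM (SE 0.060, edgeR adjusted p = 8.57e-05) and, with only a small gap to control replicate 2, by -0.20 against control (edgeR adjusted p = 0.00679). The latter no longer passed without bFGF replicate 3 or without control replicate 3, each at -0.15.

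Without OIM replicate 2, the log2 fold changes for bFGF against OIM were 1.43 for SIPA1, 1.09 for SIPA1L1, 1.01 for SIPA1L3, -1.63 for SIPA1L2 and -1.56 for RAP1GAP2. Those of RAP1A, RAP1B, RAPGEF1, RAPGEF2 and RAP1GAP were -0.31, -0.30, 0.24, 0.023 and -0.76, and each of the 10 genes stayed on the same side of the adjusted p threshold. For OIM against control SIPA1L1 was at 0.28 and still passed. The other 9 genes still did not pass, with SIPA1L3 at 0.12 (edgeR adjusted p = 0.187), RAP1GAP2 at 0.21 and RAP1GAP at 0.42.

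The falls of RAP1A and RAP1B depend on the scaling. With library totals alone, the median of all genes moved up by 0.22 on the log2 scale in both comparisons with bFGF. RAP1A then differed from OIM by -0.100 and RAP1B by -0.076, neither of which passed, and RAP1A against control turned to 0.028. RAPGEF2 rose by 0.24 against OIM under that scaling and passed. The directions of SIPA1, SIPA1L1, SIPA1L3, SIPA1L2 and RAP1GAP2 held under that scaling, and each was still called.

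**Figure D2:**
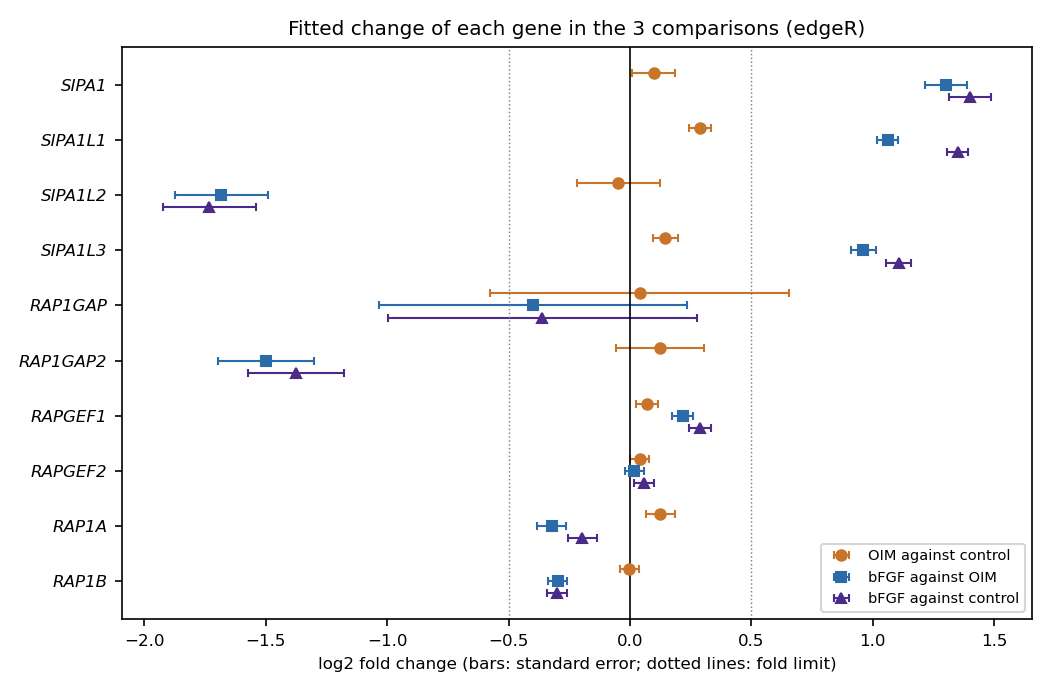
Log2 fold change of the 10 genes in each of the 3 comparisons, with bars for the standard error of the edgeR fit on 3 libraries per group and dotted lines at the fold limit of 0.5. In bFGF against OIM, the 3 higher SIPA1 family genes lie at 0.96 to 1.30, SIPA1L2 and RAP1GAP2 at -1.68 and -1.50, and the bar of RAP1GAP spans 0.

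A gene was called when its adjusted p was at most 0.05 and its absolute log2 fold change at least 0.5. For bFGF against OIM, 5 of the 10 genes were called, 3 higher and 2 lower, while 36.2% of all genes tested were called. By adjusted p alone 8 of 10 passed, 4 in each direction, against 67.4% of all genes (33.8% higher and 33.5% lower), and in 8 of 10 the groups did not overlap, against 72.1%. The median absolute log2 fold change was 0.68 over the 10 genes and 0.39 over all genes. Much of the transcriptome moved under bFGF, and the count of members that passed lies near that background.

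For OIM against control, 0 of 10 genes were called by edgeR and 0 by DESeq2, where 2.35% of all genes were called by edgeR (1.49% higher and 0.864% lower). By edgeR's adjusted p alone 1 of 10 passed, against 13.6% of all genes (7.69% higher and 5.87% lower), and 3 had an unadjusted p under 0.05, as had 3574 of the 13662 genes tested. The groups did not overlap in 2 of 10, SIPA1L1 and SIPA1L3, against 28.8% of all genes.

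For bFGF against control, the same 5 genes were called as against OIM, with 39% of all genes called (18.9% higher and 20% lower). The log2 fold changes were 1.40 for SIPA1, 1.35 for SIPA1L1, 1.11 for SIPA1L3, -1.73 for SIPA1L2 and -1.37 for RAP1GAP2. By adjusted p 8 of 10 passed, against 70.2% of all genes (34.5% higher and 35.7% lower), and the groups did not overlap in 9, against 73.7%. Both comparisons with bFGF use the same bFGF libraries, so they are no separate evidence.

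To compare genes with each other, CPM was divided by the length of each gene's merged exons in kilobases. Per kilobase, RAP1B was highest in every group, at 79.3 ± 3.3 in control, 79.2 ± 1.6 in OIM and 64.4 ± 2.0 in bFGF (SD, n = 3). RAP1A followed at 17.0, 18.5 and 14.8 CPM per kilobase. RAPGEF2 (11.4, 11.8 and 11.9) and RAPGEF1 (10.3, 10.8 and 12.5) came next and changed places under bFGF. SIPA1L1 (4.02, 4.91 and 10.2) and SIPA1 (4.01, 4.29 and 10.6) were not apart in any group, since their libraries overlapped in all 3. SIPA1L3 (1.88, 2.08 and 4.05) came below them, then SIPA1L2 (0.431, 0.417 and 0.130) and RAP1GAP2 (0.281, 0.307 and 0.108), which overlapped under bFGF. RAP1GAP was lowest, at 0.0658, 0.0683 and 0.0513 CPM per kilobase. All other neighbours in the order had libraries apart.

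**Figure D3:**
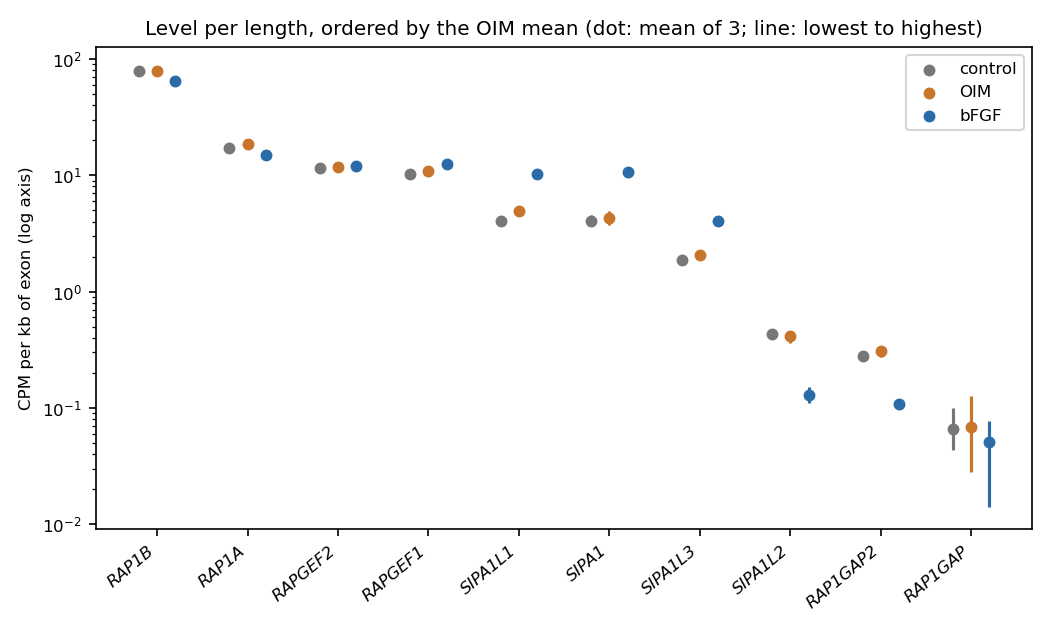
Level per kilobase of merged exon on a log10 axis for the 10 genes, with a dot at the mean of the 3 libraries of each group and a line from the lowest to the highest. RAP1B lies at the top and RAP1GAP at the bottom in every group, and SIPA1 and SIPA1L1 rise under bFGF to 10.6 and 10.2, below RAPGEF2 at 11.9 with this length.

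Summed per kilobase, the 4 SIPA1 family genes stood at 10.3 ± 0.62 in control, 11.7 ± 0.72 in OIM and 25.02 ± 0.69 in bFGF (SD, n = 3). The sum under bFGF was 2.14 times that in OIM. The sum of RAP1A and RAP1B was 0.811 times its OIM level, that of RAP1GAP and RAP1GAP2 was 0.425 times, and that of RAPGEF1 and RAPGEF2 was 1.08 times. SIPA1L2 fell from 3.56% ± 0.33 of the SIPA1 family sum in OIM to 0.518% ± 0.079 in bFGF. RAP1B made up 81.0% of the RAP1 sum in OIM and 81.3% in bFGF. The order of some neighbours depends on the length used: with the longest transcript in place of merged exons, SIPA1L1 was apart above SIPA1 in all 3 groups. With that length SIPA1L1 also stood above RAPGEF2 under bFGF, at 12.6 against 11.9 CPM per kilobase, and RAP1GAP2 above SIPA1L2, at 0.152 against 0.145, and the libraries overlapped in both cases.

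The rest of the pathway was described with a list of 35 genes, of which 34 were tested and APBB1IP, with too few counts, was not. For bFGF against OIM 4 were called higher and 10 lower, against 17.7% and 18.4% of all genes, and by adjusted p 8 were higher and 19 lower, against 33.8% and 33.5% of all genes. With library totals alone, which moved the median of all genes up by 0.22, the calls were 5 higher and 8 lower. The median log2 fold change of the list was -0.27, while that of all genes was -0.0029.

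Of the 9 other activators, 4 were called lower and 0 higher, against 18.4% and 17.7% of all genes. RASGRP2, a calcium-regulated RAP GEF known from platelets, fell by 1.94 on the log2 scale (SE 0.18, edgeR adjusted p = 1.10e-08). RASGRP3 and PLCE1, a phospholipase C that also acts as a GEF, fell by 1.22 and 0.95. RASGRP1 fell by 1.72 on only 1 to 25 counts per library, and the call was lost in 3 of 9 fits that left out 1 library, those without bFGF replicate 2, bFGF replicate 3 or OIM replicate 3, and with library totals alone or no filter on low counts. RAPGEF6 passed by adjusted p with a change of 0.42. RAPGEF3 and RAPGEF4, the cAMP-bound GEFs also called EPAC, did not pass, at 0.50 (SE 0.54) and -0.94 (SE 0.56). These genes had only 7 to 40 and 6 to 64 counts per library, so a change could have been missed. RASA3, another GAP on the list, was not called, at -0.26.

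Among the related GTPases, RAP2B and RAP2A were higher under bFGF by 1.24 and 0.69 on the log2 scale, and RAP2C was lower by 0.77 (edgeR adjusted p = 1.61e-11 for RAP2C). Among adaptors and scaffolds, MAGI2, MAGI1 and FRS2 fell by 1.07, 0.93 and 0.51. FRS2, an adaptor of FGF receptors, was close to the limit. It was not called without bFGF replicate 2, bFGF replicate 3, OIM replicate 2 or OIM replicate 3, nor with library totals alone, at -0.28. CRK and CRKL, the adaptors that bind RAPGEF1, passed in opposite directions at -0.27 and 0.23, and under the limit of a call. Changes of this size may depend on the scaling, since library totals alone moved the median of all genes up by 0.22.

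Of the 13 effectors tested, ARAP3, a GAP for other small GTPases that RAP binds, was higher by 1.23 on the log2 scale (edgeR adjusted p = 8.69e-14), and TIAM1, a RAC GEF, by 0.58. RADIL, which links RAP to adhesion, fell by 1.28. TLN1, the gene of talin, which activates integrins, fell by 0.76 (edgeR adjusted p = 1.86e-12). Its paralog TLN2 did not pass, at 0.0057. BRAF, a kinase of the MAPK pathway, passed at -0.32, below the limit of a call. Much of a change of that size may depend on the scaling, as library totals alone moved the median of all genes by 0.22.

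For OIM against control the list had 2 calls, both higher, against 1.49% of all genes: TIAM1 at 0.62 and RAPGEF5 at 0.53. By adjusted p 6 were higher and 1 was lower, against 7.69% and 5.87% of all genes. TIAM1 was called in 1 of the 9 fits that left out 1 library, the one without OIM replicate 2. It was not called when only the 2 groups compared were fitted, nor with a replicate block. RAPGEF5 was called in 5 of the 9 fits that left out 1 library, so both calls rest near the threshold. RAPGEF5 was not called without control replicate 1, 2 or 3 or without OIM replicate 3. For bFGF against control the counts were again 4 higher and 10 lower, against 18.9% and 20% of all genes. With library totals alone, which moved the median of all genes up by 0.22, the balance turned to 7 higher and 5 lower. The changes ran from RAP2B at 1.41, TIAM1 at 1.20 and ARAP3 at 1.17 to RASGRP1 at -1.67, RASGRP2 at -1.66 and MAGI2 at -1.30. The call of RASGRP1 was lost here without bFGF replicate 2, bFGF replicate 3, control replicate 1 or control replicate 3, and with library totals alone or no filter on low counts.

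**Figure D4:**
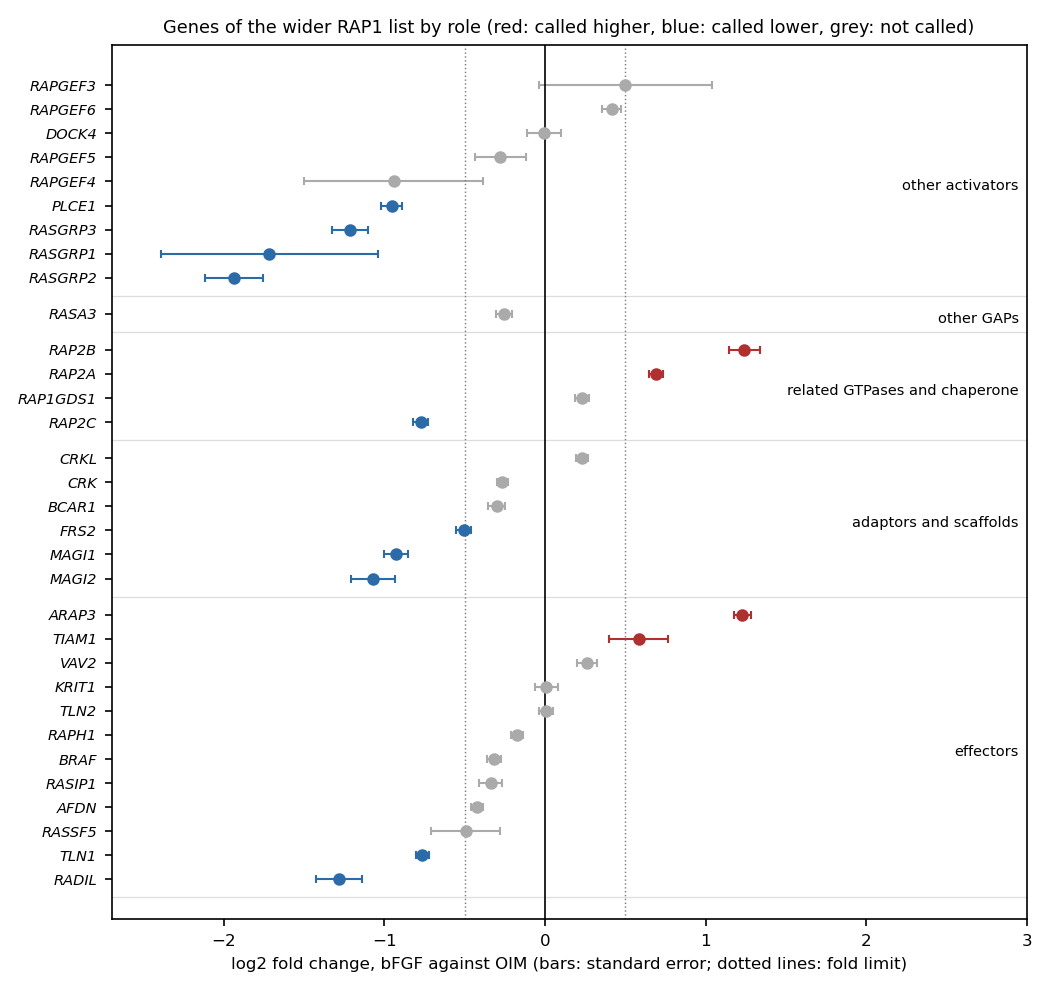
Log2 fold change for bFGF against OIM of genes of the wider RAP1 list by role, with bars for the standard error, red for genes called higher, blue for genes called lower and grey for the rest. The highest points are RAP2B and ARAP3 at 1.24 and 1.23, and the lowest is RASGRP2 at -1.94.

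Markers of the interstitial cells and of other cell types moved with bFGF. The 10 interstitial markers summed to 62050 to 64870 CPM in OIM and 39100 to 39470 CPM in bFGF, with 4 called lower and 2 higher, where 18.4% of all genes were called lower and 17.7% higher. Most of that sum is collagen: the mean level of COL1A1 was 25047 CPM in OIM and 9886 CPM in bFGF, that of COL1A2 17751 and 8849 CPM and that of COL3A1 10893 and 6606 CPM. VIM, at 5695 and 9008 CPM, and POSTN, at 599.6 and 1645 CPM, went the other way. The summed level of the 6 smooth muscle and contractile genes was 9680 to 10210 CPM in control, 9966 to 13200 CPM in OIM and 1556 to 1736 CPM in bFGF, and all 6 were called lower under bFGF against OIM. The 8 endothelial markers summed to 20.9 to 23.2 CPM in OIM and 36.3 to 38.8 CPM in bFGF, with 6 of 8 called higher, against the 17.7% of all genes. The mean level of PECAM1 was 11.8 CPM in OIM and 20.7 CPM in bFGF. That of CDH5 was 5.80 and 8.24 CPM and that of KDR 0.169 and 1.17 CPM. TIE1 moved little, at 1.85 and 2.03 CPM, and VWF went the other way, at 0.303 and 0.228 CPM. VWF and CLDN5 were below 1 CPM in every library. The leukocyte list was at most 3.45 CPM and the epithelial list at most 0.220 CPM. In bulk RNA, fewer cells of a type and less RNA per cell cannot be told apart. The part these shifts play in the RAP1 genes was not tested.

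The 5 genes whose log2 CPM followed SIPA1L1 most closely over the 9 libraries were NEIL3, TNFRSF12A, WEE1, PLAUR and POC1A, with Pearson r of 0.998, 0.998, 0.998, 0.998 and 0.997. NEIL3 is a DNA glycosylase, TNFRSF12A the receptor of the cytokine TWEAK, WEE1 a kinase that holds the cell cycle before mitosis, PLAUR the urokinase receptor and POC1A a centriole protein. The points are libraries in 3 groups, so a step between groups is enough for a high r, and 2897 genes had an r above 0.9. The order holds for Pearson r alone: by Spearman rho 0 genes lay above WEE1, 12 above POC1A, 67 above NEIL3, 165 above PLAUR and 504 above TNFRSF12A.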

How the data were processed

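The deposited table holds whole-number gene counts, estimated counts of non-coding transcripts and junction counts of circRNAs, none of them normalized by the authors. Per the labels, total RNA was depleted of ribosomal RNA with a stranded kit, and the submitters' processing notes name Trimmomatic, HISAT2 and StringTie, whereas the paper's methods name poly-A selection, Cutadapt and STAR. The counting program and its strand setting are not given in the sources used here. A further 19 columns without name or value were not used.

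Tests on gene counts used edgeR 4.0.16 under R 4.3.3 (filterByExpr, TMM, quasi-likelihood fit of 3 groups, Benjamini-Hochberg over 13662 genes). The standard error is the log2 fold change divided by the root of the F statistic, and 95% intervals use 6 residual degrees of freedom. The edgeR test also draws on the spread of all genes, so these intervals are wider than its p-values imply. Lengths, positions and windows came from RefSeq's Sscrofa11.1. On simulated counts for bFGF against OIM, 198 of 200 changed genes were recovered, with 2 false calls among 13379 genes tested. Only those 200 genes were changed there, all by more than the fold limit, whereas 36.2% of all genes were called in the data. The simulation therefore does not test the scaling or changes near the limit. All 10 members are named, with the called genes of the wider list, at most 6 in each direction, and the 5 genes most like SIPA1L1; further genes of the wider list were named after their values were seen, and a few are counted but not reported singly here. The members and lists were chosen with earlier results of these data known. Alternatives were DESeq2 1.42.0, other scalings, filters and fold limits, fits on 2 groups, a replicate block and leaving out each library.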

Additional observations from a re-analysis of the deposited data

Results flagged for a closer look

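A non-coding transcript within an intron of SIPA1L3, XR_002344639.1 of LOC110260981 (chromosome 6, 47116173 to 47119891, same strand), lies outside the gene counts used above. It was flagged because its estimated counts in every OIM library (13.3 to 15.6) and every bFGF library (15.5 to 27.7) exceeded those in all control libraries (3.34 to 7.74). The difference was not tested.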

How the results depend on the processing

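The count of called members was 0 for OIM against control, 5 for bFGF against OIM and 5 for bFGF against control, and it stayed at these values in every fit that left out 1 library, under DESeq2 and with a replicate block. Library totals alone gave 6 for bFGF against control, with RAPGEF1 at 0.51. No fold limit gave 1, 8 and 8, and a limit of 1 gave 4 for bFGF against OIM. The wider list had 2, 14 and 14 calls. For OIM against control it had 1 when only the 2 groups compared were fitted, 1 with a replicate block, 0 to 2 when 1 library was left out, 7 with no fold limit and 0 with a limit of 1. For bFGF against OIM it had 27 with no limit and 7 with a limit of 1, and for bFGF against control 25 and 8.

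Signs turned only for log2 fold changes that did not pass, except RAP1A against control under bFGF, which was 0.028 with library totals alone. When 1 library was left out, OIM against control ranged from -0.014 to 0.20 for SIPA1, from -0.11 to 0.045 for SIPA1L2, from -0.035 to 0.022 for RAP1B and from -0.75 to 0.48 for RAP1GAP. RAP1GAP ranged from -0.83 to 0.39 for bFGF against OIM and from -0.78 to 0.080 for bFGF against control. RAP1B for OIM against control was 0.0048 under DESeq2, 0.0048 with median-of-ratios size factors and 0.00039 with library totals. The cause was not tested.

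Libraries with the same replicate number did not deviate together, with correlations from -0.032 to 0.0035 over 9 pairs. Those of the other 18 pairs ran from -0.026 to 0.053, and 0 of 9 libraries correlated best with their own number. No pairing by number showed in the counts, which cannot tell whether same-numbered cultures were set up together. With the replicate block the members called were 0, 5 and 5 and the wider list 1, 14 and 14. Depth limits RAP1GAP, RASGRP1, RAPGEF3 and RAPGEF4, which had at most 39, 25, 40 and 64 counts per library. Gene counts do not separate transcripts of a gene.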

Other observations

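The circRNA part of the table, which counts reads across back-splice junctions, held 7 circRNAs within 4 of the 10 genes, 3 in SIPA1L1, 2 in SIPA1L3 and 1 each in RAP1A and RAPGEF1. Both ends of all 7 lay at annotated exon boundaries. The most abundant was circRNA_0668 in RAPGEF1 (chromosome 1, 271551340 to 271561877), with 22 junction counts over 5 of 9 libraries and at most 8 in one. Its counts were 0, 0 and 2 in control, 8, 0 and 6 in OIM and 3, 3 and 0 in bFGF. The circRNA in RAP1A had 7 counts in 2 libraries, and each of the other 5 was seen in a single library. These counts are too few to compare groups.

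A predicted protein-coding gene antisense to the 5′ end of SIPA1L1, LOC102159548, had 0 or 1 count in every library, and the antisense lncRNA at its 3′ end, LOC110261627, was listed at 0 throughout.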
